A study of Mus musculus with 342 samples.

Results

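The genes described are those for the proteins of the mitochondrial ribosome, measured on liver arrays of Collaborative Cross mice given TAK-875 or its vehicle. A gene was a member when its symbol on the array platform began with Mrpl (large subunit) or Mrps (small subunit) followed by a number. Of 9093 genes measured by a probe set that names 1 gene, 70 were members, 45 with an Mrpl and 25 with an Mrps symbol. They were read by 99 such probe sets, and a gene with several was read by its brightest, judged by the average of all arrays.

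Mitochondria keep a ribosome of their own, which translates the few messenger RNAs of mitochondrial DNA, all of them for core subunits of the respiratory chain and the ATP synthase. Its ribosomal RNA is made inside the organelle, whereas its proteins are encoded in the nucleus, made in the cytosol and imported. Part of these proteins descend from bacterial ribosomal proteins, and the others are found only in mitochondrial ribosomes. Hepatocytes are rich in mitochondria and depend on them for fatty acid oxidation, urea synthesis and ATP.

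TAK-875 (fasiglifam) activates FFAR1, a receptor for free fatty acids, and was developed as a diabetes drug and stopped because of liver injury. All mice were males of about 8 to 10 weeks from 44 Collaborative Cross lines, which are recombinant inbred lines from shared founder strains, so that mice of a line are near identical in genotype. In each line, mice were dosed in pairs, 1 with a single oral gavage of 0.5% methylcellulose (vehicle, 0 mg/kg) and 1 with TAK-875 at 600 mg/kg, and livers were taken 24 h later. Of the lines, 39 contributed 4 pairs each and 5 contributed 3, giving 171 pairs on 342 arrays, 1 mouse per array. A further line that the labels count among 45 was not analysed here. The question put to the data was how these genes responded to the drug across genotypes.

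The arrays had the profile of liver: on the log2 scale of the arrays, the hepatocyte genes Alb, Apoa1 and Ttr lay between 12.57 and 13.68 on every array. The array medians ranged from 5.40 to 6.22, and the TAK-875 minus vehicle difference of array medians from -0.13 to 0.26 over lines, so the counts of members are given with the deposited values and with arrays centred on their medians. Among 11 markers of Kupffer cells and macrophages, 9 were lower after the drug and 0 higher, and among 7 of endothelium, 4 were lower and 0 higher (limma, 0 and 1 rose at an unadjusted p under 0.05). The mean level of the macrophage list was between 5.63 and 8.48 on vehicle arrays and between 4.84 and 7.93 on TAK-875 arrays, and of 9 hepatocyte markers, 3 rose and 2 fell. Over all genes, 15.2% rose and 11.8% fell. In whole liver, fewer cells of a type and less RNA per cell cannot be told apart, and the part of these markers in the results on the members was not tested. On 6 TAK-875 arrays, each in another line, the median correlation with the other arrays of the same line and treatment was under 0.91, against a median of 0.976 over all arrays, and counts are also given without their 6 pairs.

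The promoters of the members are shown first, because the genes are often described as targets of a small set of transcription factors. RefSeq promoter sequences (mouse build GRCm38.p6) were available for 62 of the 70 members, and the 250 bases before the annotated start are printed 5′ to 3′ in the direction of transcription for 4 large rises with a match (Mrpl17, Mrpl32, Mrpl52 and Mrpl53), for Mrpl50 as a large rise without one, and for Mrpl28, the member whose fall was called in every setting with 1 value per gene. Capitals mark a match to one of 5 motifs searched on both strands: the NRF1 core GCATGCGC, the ETS family motif of GABPA CCGGAAG, the ERR motif TCAAGGTCA, the E-box CACGTG and the TATA motif TATAAA.
Mrpl17, chr7:105811088-105811337, minus strand: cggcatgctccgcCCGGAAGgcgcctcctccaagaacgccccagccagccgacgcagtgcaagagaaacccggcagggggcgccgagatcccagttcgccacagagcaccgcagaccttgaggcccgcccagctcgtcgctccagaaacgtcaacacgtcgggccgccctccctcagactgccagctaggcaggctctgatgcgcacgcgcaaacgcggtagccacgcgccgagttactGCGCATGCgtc
Mrpl32, chr13:14613038-14613287, minus strand: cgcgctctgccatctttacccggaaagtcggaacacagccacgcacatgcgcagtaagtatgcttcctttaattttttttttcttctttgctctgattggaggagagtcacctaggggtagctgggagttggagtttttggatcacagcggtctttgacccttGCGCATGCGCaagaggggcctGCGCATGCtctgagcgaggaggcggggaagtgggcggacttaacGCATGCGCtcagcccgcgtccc
Mrpl52, chr14:54426659-54426908, plus strand: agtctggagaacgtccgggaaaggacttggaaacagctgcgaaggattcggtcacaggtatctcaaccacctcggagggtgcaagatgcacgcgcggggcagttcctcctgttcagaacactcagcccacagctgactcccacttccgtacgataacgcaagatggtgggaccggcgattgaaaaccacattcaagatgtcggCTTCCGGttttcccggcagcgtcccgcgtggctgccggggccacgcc
Mrpl53, chr6:83108858-83109107, plus strand: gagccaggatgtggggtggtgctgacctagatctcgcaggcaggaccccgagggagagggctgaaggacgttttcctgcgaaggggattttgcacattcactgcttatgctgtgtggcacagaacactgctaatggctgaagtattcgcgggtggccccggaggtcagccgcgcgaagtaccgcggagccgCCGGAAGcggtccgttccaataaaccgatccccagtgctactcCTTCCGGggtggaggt
Mrpl50, chr4:49521084-49521333, minus strand: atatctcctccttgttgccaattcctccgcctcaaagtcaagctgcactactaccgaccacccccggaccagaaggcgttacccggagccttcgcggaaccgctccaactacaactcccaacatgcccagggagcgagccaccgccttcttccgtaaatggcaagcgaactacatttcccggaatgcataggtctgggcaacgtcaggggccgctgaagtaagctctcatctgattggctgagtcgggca
Mrpl28, chr17:26123253-26123502, plus strand: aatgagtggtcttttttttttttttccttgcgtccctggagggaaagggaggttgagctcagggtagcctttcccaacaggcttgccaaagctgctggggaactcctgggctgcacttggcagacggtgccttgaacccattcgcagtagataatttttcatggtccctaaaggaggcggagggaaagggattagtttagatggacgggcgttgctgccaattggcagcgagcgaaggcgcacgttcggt
The Mrpl17 promoter held an ETS match whose first base lay at -237 and an NRF1 match at -11 from the start. Mrpl32 held 4 NRF1 matches, of which the first 2 overlap, and no ETS match. Mrpl52 held 1 ETS match and Mrpl53 held 2, and no motif was matched in the Mrpl28 window. Of the other members among the 8 largest rises, Mrps27 held 1 ETS match, Mrpl50 and Mrpl24 held no match, and Mrpl54 was not among the promoters used. In the 300-base windows that also take in 50 bases after the start, the ETS motif was present in 21 of 62 members (33.9%), against 20.0% of the 7412 tested genes with a promoter and 9.93% of all 27025 genes of the promoter table. Among the members that rose after TAK-875, 11 of 23 held it, among those that fell 0 of 3, and among those not called 10 of 36. The share among all genes that rose is not given here, and the contrast was not tested. The NRF1 core was present in 6 of 62 members (9.68%) against 6.08% of the tested genes, the E-box in 4 (6.45%) against 12.0% and the TATA motif in 5 (8.06%) against 9.63%. The ERR motif was matched in 0 of 62 members and in 0.364% of the tested genes. These are matches of letters only, and binding was not measured.

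More members rose than fell after TAK-875, and the rises were small. With 1 mean response per line and a limma test of the 44 line means against 0, 26 of 70 members rose (37.1%) at a Benjamini-Hochberg adjusted p under 0.05 over all genes, where 15.2% of all genes rose. In the same fit, 4 members fell (5.71%), where 11.8% of all genes fell, and 40 were not called. The median change of the 70 members was 0.039 on the log2 scale against 0.0056 over all genes, and 49 of the 70 estimates lay above 0. Without the first pair of every line the members' median was 0.062. With arrays centred on their medians, 12 members rose (17.1%) and 4 fell, against 11.4% and 14.5% of all genes, and the median change was 0.024 against -0.0092. The 12 were among the 26, and the 4 that fell were the same genes. The count of rises was also lower in 3 of 4 cases when a numbered pair was left out of every line, with 16 rises without the second pair, 14 without the third and 14 without the fourth, where 13.7%, 13.3% and 11.4% of all genes rose. It was 30 without the first pair, where 14.2% of all genes rose, and 25 of these were among the 26. Without the 6 poorly correlated pairs it was also 30, where 17.3% of all genes rose, but 21 of these were among the 26. The count of falls was 1 without the first pair and 2 without the fourth or without the poorly correlated pairs, where 11.9%, 9.52% and 11.4% of all genes fell. The largest change of a member, a 1.22-fold rise of Mrpl17, was exceeded by the rises of 148 other genes.

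**Figure D1:**
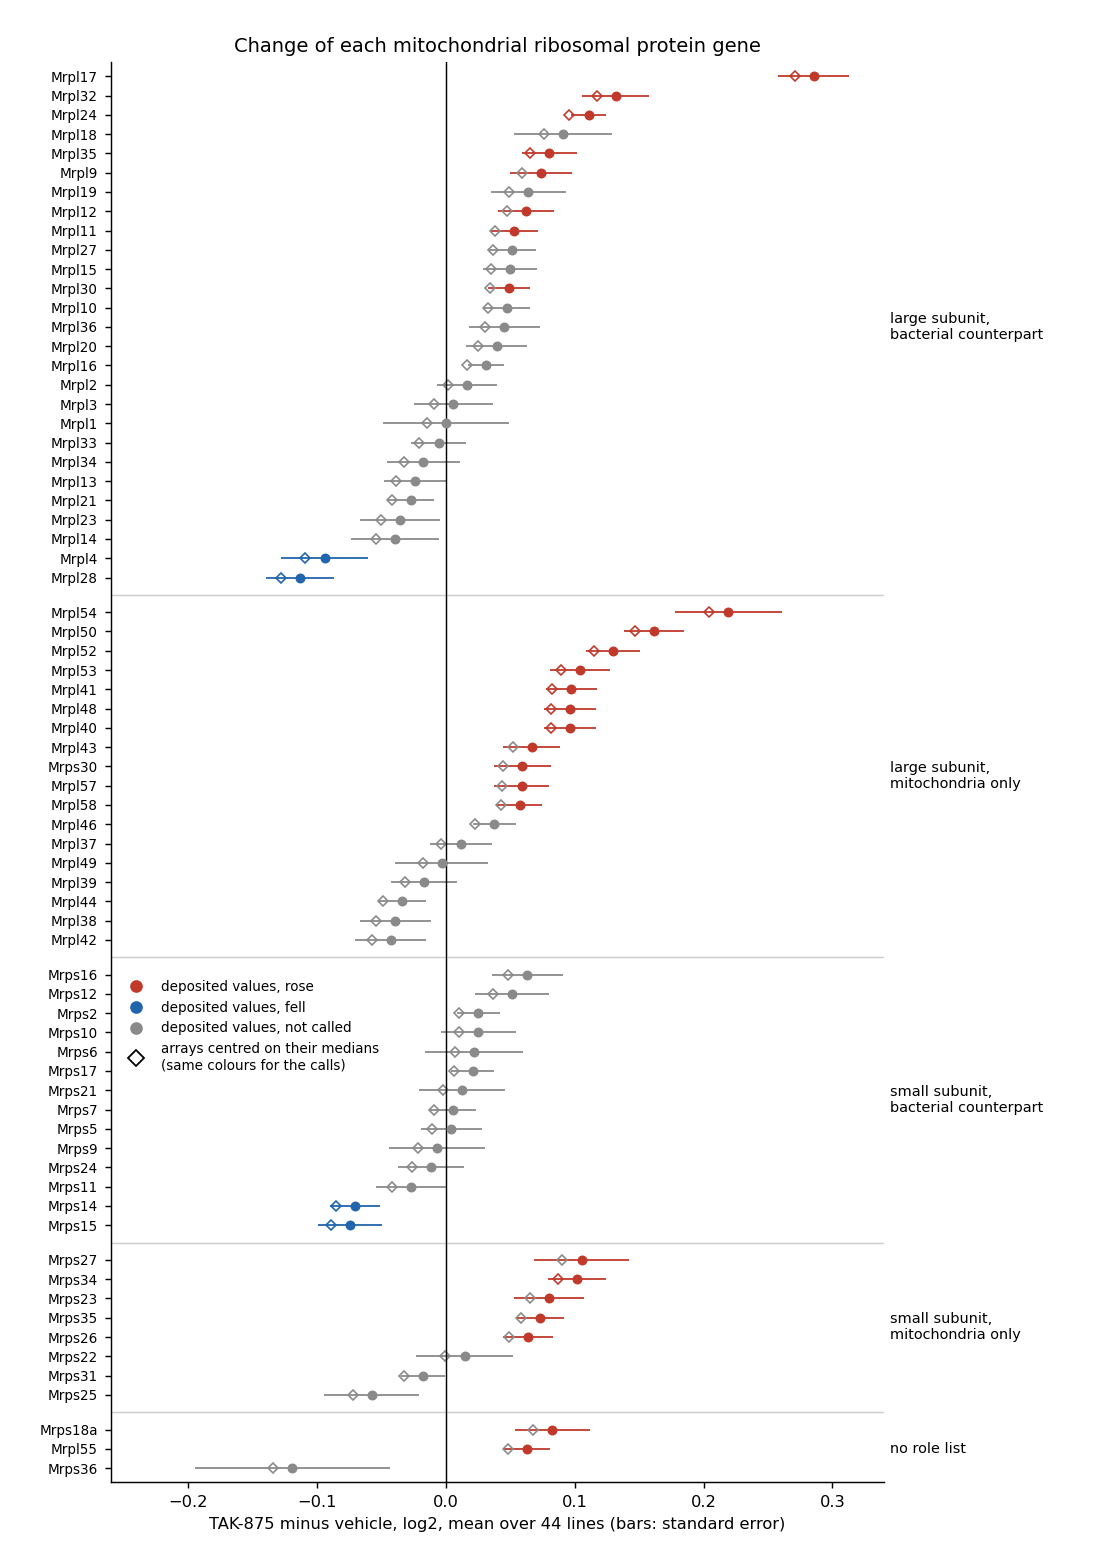
Mean change of each of the 70 members over 44 lines (x axis, log2 TAK-875 minus vehicle; bars, standard error), grouped by role, with filled circles for deposited values and open diamonds for arrays centred on their medians, coloured by call. Mrpl17 (0.29) and Mrpl54 (0.22) stand to the right, and the 4 members that fell are Mrpl28, Mrpl4, Mrps14 and Mrps15.

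By role, 8 of 27 large subunit proteins with a bacterial counterpart rose (29.6%, against 15.2% of all genes) and 2 fell (7.41%, against 11.8%), with a median change of 0.046. Of 18 large subunit proteins found only in mitochondrial ribosomes, 11 rose (61.1%) and 0 fell, with a median of 0.059 (limma, 0 fell at an unadjusted p under 0.05). Of 14 small subunit proteins with a bacterial counterpart, 0 rose and 2 fell (14.3%), with a median of 0.0092 (limma, 1 rose at an unadjusted p under 0.05). Of 8 small subunit proteins found only in mitochondrial ribosomes, 5 rose (62.5%) and 0 fell, with a median of 0.069 (limma, 0 fell at an unadjusted p under 0.05). With centred arrays the 3 lists that had rises kept 4, 7 and 1 of them in this order (14.8%, 38.9% and 12.5%, against 11.4% of all genes), and the 2 lists that had falls kept 2 each. The first and the last of these shares lie near that of all genes. Mrpl55, Mrps18a and Mrps36 were in no role list, and the first 2 of them rose. The difference between the role lists was not tested.

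Mrpl17, the counterpart of a bacterial large subunit protein, rose most. It ranged from 8.70 to 10.10 (median 9.56) on the vehicle arrays and from 9.09 to 10.88 (median 9.86) on the TAK-875 arrays. The 2 groups of arrays overlapped over most of their range, but the TAK-875 mouse was higher in 139 of 171 pairs. The mean change was 0.29 ± 0.18 (SD over 44 lines; SE 0.027), a 1.22-fold rise (limma, adjusted p = 1.43e-10), and 0.27 with centred arrays. Of the 44 lines, 41 were above 0. Line responses ran from -0.20 in CC025/GeniUnc to 0.73 in CC052/GeniUnc.

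Mrpl54, a protein of the mitochondrial large subunit without a bacterial counterpart, was the next. Its level was between 4.30 and 7.82 (median 6.79) on vehicle arrays and between 5.63 and 7.86 (median 7.00) on TAK-875 arrays. The lowest vehicle values lay below every TAK-875 value, and the upper ends of both groups were alike. The change was 0.22 ± 0.28 (SD over 44 lines), higher in 35 lines (limma, adjusted p = 4.35e-05). Mrpl50, likewise found only in mitochondrial ribosomes, ranged from 7.18 to 8.65 (median 7.96) on vehicle and from 6.77 to 9.06 (median 8.14) on TAK-875 arrays. The ranges overlapped almost whole, and 134 of 171 pairs were higher with TAK-875. Mrpl50 changed by 0.16 ± 0.15 (SD over 44 lines), higher in 38 lines (limma, adjusted p = 1.17e-06).

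Mrpl32 is a large subunit protein that the m-AAA protease of the inner membrane matures before it enters the ribosome. Levels of Mrpl32 were 6.67 to 8.51 (median 8.06) with vehicle and 7.58 to 8.66 (median 8.20) with TAK-875. The lowest vehicle values lay below every TAK-875 value, and the change was 0.13 ± 0.17 (SD, 44 lines), higher in 37 lines (limma, adjusted p = 0.000146). Mrpl52 ranged from 8.52 to 10.30 (median 9.62) and from 8.59 to 10.48 (median 9.75), respectively. Its change was 0.13 ± 0.14 (SD, 44 lines; limma, adjusted p = 1.63e-05), and its other 2 probe sets gave 0.12 and 0.13, so the 3 readings of this gene were alike. Mrpl24, which binds early in the assembly of the bacterial subunit, had the steadiest response. Its levels were 9.09 to 10.01 (median 9.52) with vehicle and 9.12 to 10.03 (median 9.64) with TAK-875, and the 2 ranges were nearly the same. Even so, 140 of 171 pairs and 41 of 44 lines were higher with the drug, and the mean change was 0.11 ± 0.090 (SD, 44 lines; limma, adjusted p = 1.03e-06).

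Mrps27, a pentatricopeptide repeat protein of the small subunit, and Mrpl53, a large subunit protein without a bacterial counterpart, were the smallest of the 8 largest rises. Mrps27 ranged from 7.00 to 8.39 (median 7.71) on vehicle and from 5.93 to 8.68 (median 7.90) on TAK-875 arrays, the latter reaching further both ways. It changed by 0.11 ± 0.24 (SD, 44 lines; limma, adjusted p = 0.0257), and 30 lines were higher. That call was lost with centred arrays (adjusted p = 0.0828) and without the second or the third pair (0.190 and 0.0899). Mrpl53 ranged from 8.33 to 9.98 (median 9.46) on vehicle and from 8.32 to 10.14 (median 9.59) on TAK-875 arrays. The ranges again overlapped, and the change was 0.10 ± 0.15 (SD, 44 lines; limma, adjusted p = 0.000977), with 34 lines higher. Besides these, Mrps34, Mrpl41, Mrpl48, Mrpl40 and Mrpl35 rose on both scales, by 0.080 to 0.10 with deposited values and 0.065 to 0.087 with centred arrays. Apart from Mrpl35, the members that rose on both scales were called in every setting with 1 value per gene, 11 in all.

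The 4 members that fell all have bacterial counterparts. Mrpl28 ranged from 9.02 to 10.39 (median 9.75) on vehicle arrays and from 8.89 to 10.21 (median 9.63) on TAK-875 arrays. The TAK-875 range was shifted down by little against its width, and 113 of 171 pairs were lower. The change was -0.11 ± 0.17 (SD, 44 lines), lower in 35 lines (limma, adjusted p = 0.00111). The probe set used for Mrpl28 can bind unrelated transcripts, and a second one that binds 1 transcript set gave -0.14 (adjusted p = 0.000112 among all probe sets). Mrpl28 was the single fall called in every setting with 1 value per gene.

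Mrpl4, a protein that lines the exit tunnel of the bacterial ribosome, ranged from 8.06 to 9.53 (median 8.66) on vehicle and from 7.49 to 9.08 (median 8.61) on TAK-875 arrays. The TAK-875 arrays reached lower and the vehicle arrays higher, and the change was -0.094 ± 0.22 (SD, 44 lines; limma, adjusted p = 0.0306). The call was lost without the poorly correlated pairs (-0.059, adjusted p = 0.145), without the first pair (-0.073, 0.136) and without the fourth (-0.080, 0.0738). Mrps15 was between 7.05 and 8.59 (median 7.91) with vehicle and between 6.83 and 8.47 (median 7.86) with TAK-875, with much overlap. It changed by -0.074 ± 0.16 (SD, 44 lines; limma, adjusted p = 0.0265), 16 lines being higher and 28 lower. The Mrps15 call was lost without the first, the second or the fourth pair (limma, adjusted p = 0.319, 0.0516 and 0.0686), when the poorly correlated pairs were left out (0.0580) and with the mean of its probe sets (-0.051, 0.128). Mrps14 was between 8.20 and 9.68 (median 8.87) with vehicle and between 7.98 and 9.36 (median 8.79) with TAK-875, again with much overlap. It changed by -0.070 ± 0.13 (SD, 44 lines; limma, adjusted p = 0.0101), while its second, dimmer probe set gave -0.018 (adjusted p = 0.588). The Mrps14 call was lost without the first pair (limma, adjusted p = 0.0897) and with the mean of its probe sets (0.0724).

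**Figure D2:**
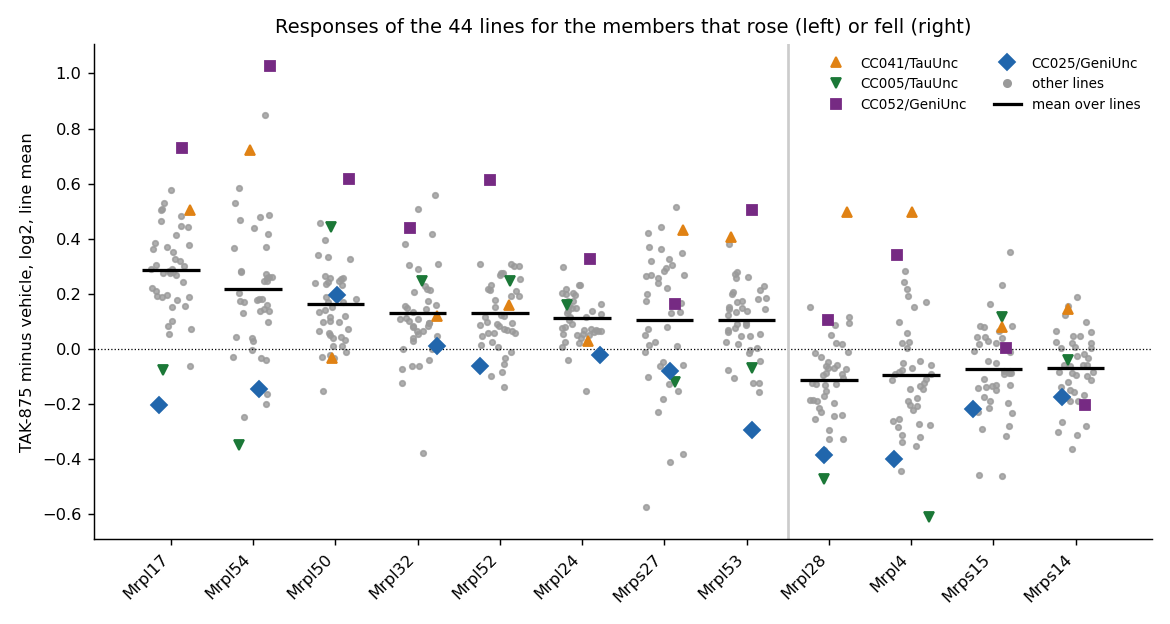
Responses of the 44 lines (y axis, log2 TAK-875 minus vehicle, mean of 3 or 4 pairs) for the 8 members with the largest rises and the 4 that fell; black bars are means over lines and 4 lines are marked. CC052/GeniUnc is the highest line for Mrpl17, Mrpl54, Mrpl50, Mrpl52, Mrpl24 and Mrpl53, while CC041/TauUnc is the highest and CC005/TauUnc the lowest for Mrpl28 and Mrpl4.

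Members with roles beside or within the ribosome were described whatever their result. Mrpl12, the stalk protein that is also known to bind mitochondrial RNA polymerase, changed by 0.062 ± 0.14 (SD, 44 lines; limma, adjusted p = 0.0377), which did not pass with centred arrays (0.048, adjusted p = 0.259) nor without the second, the third or the fourth pair (0.136, 0.124 and 0.136). Mrpl10, which anchors the stalk, was at 0.048 (adjusted p = 0.0706), and passed without the first pair (0.073, adjusted p = 0.0118) and when the 6 poorly correlated pairs were left out (0.053, 0.0406). Mrps12, at the decoding site, was at 0.051 ± 0.19 (SD, 44 lines; limma, adjusted p = 0.198), and at 0.071 without the poorly correlated pairs (adjusted p = 0.0496). Mrpl41 rose by 0.098 ± 0.13 (SD, 44 lines; limma, adjusted p = 0.000507). Mrpl44, which resembles ribonuclease III, was at -0.034 (adjusted p = 0.231). Mrps30 and Mrps18a carry small subunit symbols but belong to the large subunit, and rose by 0.060 (adjusted p = 0.0499) and 0.082 (adjusted p = 0.0315) with the deposited values but not with centred arrays. The Mrps30 call was lost without the second, the third or the fourth pair (limma, adjusted p = 0.112, 0.115 and 0.334) and when the poorly correlated pairs were left out (0.143), and the Mrps18a call without the third or the fourth pair (0.168 and 0.162). Mrps36, now described as a component of the 2-oxoglutarate dehydrogenase complex, was at -0.12 ± 0.50 (SD, 44 lines; limma, adjusted p = 0.237). Mrps18b and Mrps18c were not analysed here.

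The response was set beside 2 related gene families. Both were taken by symbol, so they hold a few genes of other kinds. The 26 genes with a symbol of the cytosolic ribosome had a median change of 0.0085 against 0.039 for the mitochondrial ribosomal proteins. They included Rps19bp1, which binds a ribosomal protein, and the paralogues Rpl7l1 and Rps27l. Of the 23 others, 1 rose, namely Rpl23 at 0.048 (limma, adjusted p = 0.0322, and 0.186 with centred arrays), and 0 fell (1 at an unadjusted p under 0.05). Rpl7l1 was at -0.078 (limma, adjusted p = 0.0492). The 73 genes of the respiratory chain and ATP synthase, of which 2 rose and 34 fell, comprised 66 for nuclear-encoded subunits and 7 for assembly factors of complex I. Of the 66 subunits, 0 rose and 31 fell (47.0%, against 11.8% of all genes), with a median of -0.050 (limma, 0 rose at an unadjusted p under 0.05). The subunits' counts were the same with centred arrays, where their median was -0.065 against 0.024 for the mitochondrial ribosomal proteins, so the medians had opposite signs on both scales. Of the assembly factors, Ndufaf3 (0.18 ± 0.19; SD, 44 lines; limma, adjusted p = 5.73e-06) and Ndufaf4 (0.14 ± 0.29; adjusted p = 0.0110) rose, and Ndufaf5 was the lowest of the 3 that fell (-0.22 ± 0.32; adjusted p = 0.000246). This division of the lists was made after their values were seen, and the difference between the families was not tested.

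**Figure D3:**
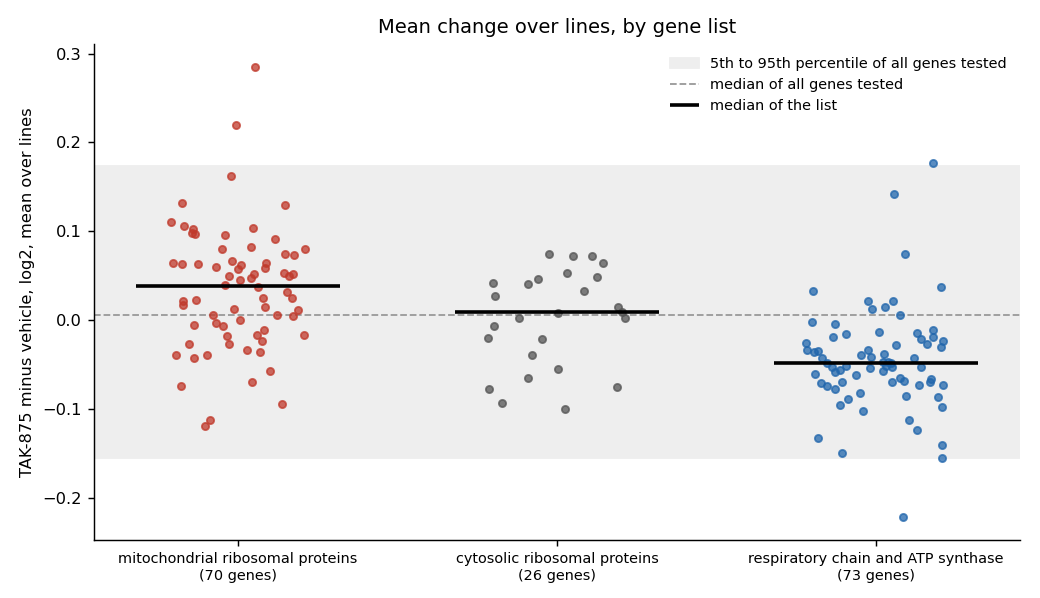
Mean change over 44 lines (y axis, log2 TAK-875 minus vehicle, deposited values) of each gene of 3 families taken by symbol; black bars are medians, the grey band runs from the 5th to the 95th percentile of all genes tested (-0.16 to 0.17) and the dashed line is their median. The mitochondrial ribosomal proteins have a median of 0.039 and the respiratory chain and ATP synthase, with its assembly factors, one of -0.049.

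Other genes of mitochondrial gene expression were read from short lists of the pathway. Their counts stand beside 15.2% of all genes that rose and 11.8% that fell, and differences from these shares were not tested. Of 4 ribosome subunits under other names, 0 rose and 1 fell (25.0%), namely Chchd1 at -0.076 (limma, adjusted p = 0.00705, 0 rose at an unadjusted p under 0.05). Of 6 translation factors, 0 rose and 0 fell (limma, 0 at an unadjusted p under 0.05). Of 18 genes for aminoacyl-tRNA synthesis, 2 rose (11.1%) and 1 fell (5.56%), led by Ears2, the glutamyl-tRNA synthetase, at 0.20 ± 0.31 (SD, 44 lines; limma, adjusted p = 0.000921). Of 20 genes for ribosome assembly and rRNA modification, 5 rose (25.0%) and 3 fell (15.0%). Among them Mtg1, a GTPase of large subunit assembly, rose by 0.21 ± 0.22 (SD, 44 lines; limma, adjusted p = 4.61e-06), and Nsun4, a methyltransferase of mitochondrial rRNA, was at -0.15 ± 0.19 (SD, 44 lines; limma, adjusted p = 8.72e-05).

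Of 15 genes for transcription and upkeep of mitochondrial DNA, 3 rose (20.0%, against 15.2% of all genes) and 1 fell (6.67%, against 11.8%). Twnk, the DNA helicase, rose by 0.17 ± 0.25 (SD, 44 lines; limma, adjusted p = 0.000382), whereas Polrmt, the RNA polymerase, was at -0.11 ± 0.17 (SD, 44 lines; limma, adjusted p = 0.00149). Of 9 transcription factors and coactivators, Myc (0.27 ± 0.50; SD, 44 lines; limma, adjusted p = 0.00368) and Pprc1 (0.16 ± 0.43; adjusted p = 0.0433, and 0.0755 with centred arrays) rose (22.2%) and 0 fell (limma, 0 fell at an unadjusted p under 0.05). Of 10 genes for insertion, chaperones and proteases of the inner membrane and matrix, 4 rose (40.0%) and 0 fell (limma, 0 fell at an unadjusted p under 0.05). Hspe1, the co-chaperonin of the matrix, rose by 0.24 ± 0.17 (SD, 44 lines; limma, adjusted p = 2.81e-09), with 38 of 44 lines higher. Clpp, a matrix protease, rose by 0.12 ± 0.16 (SD, 44 lines; limma, adjusted p = 0.000252).

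Over the lines, the mean response of the 70 members averaged 0.035 ± 0.083 (SD, 44 lines) and was above 0 in 28 lines. It ran from -0.15 in CC025/GeniUnc to 0.22 in CC052/GeniUnc, and the median SD over the pairs of a line was 0.15. Each step between neighbouring lines in that order was smaller than this SD. CC025/GeniUnc and CC052/GeniUnc had wide spreads themselves (SD 0.29 and 0.32 over 4 pairs), whereas CC041/TauUnc was at 0.19 ± 0.075 (SD, 4 pairs). Of the 171 pairs, 105 had a member mean above 0. With centred arrays the mean was 0.020 ± 0.13 (SD, 44 lines), the range was -0.27 to 0.31, and 23 lines lay above 0. The lowest line was again CC025/GeniUnc, but the highest became CC041/TauUnc. Across the 44 lines, the centred member mean and the difference of array medians had a Pearson r of -0.76, and the member mean of the deposited values and that difference one of -0.073. The centred mean holds the array medians by construction, so the first value is partly built in.

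**Figure D4:**
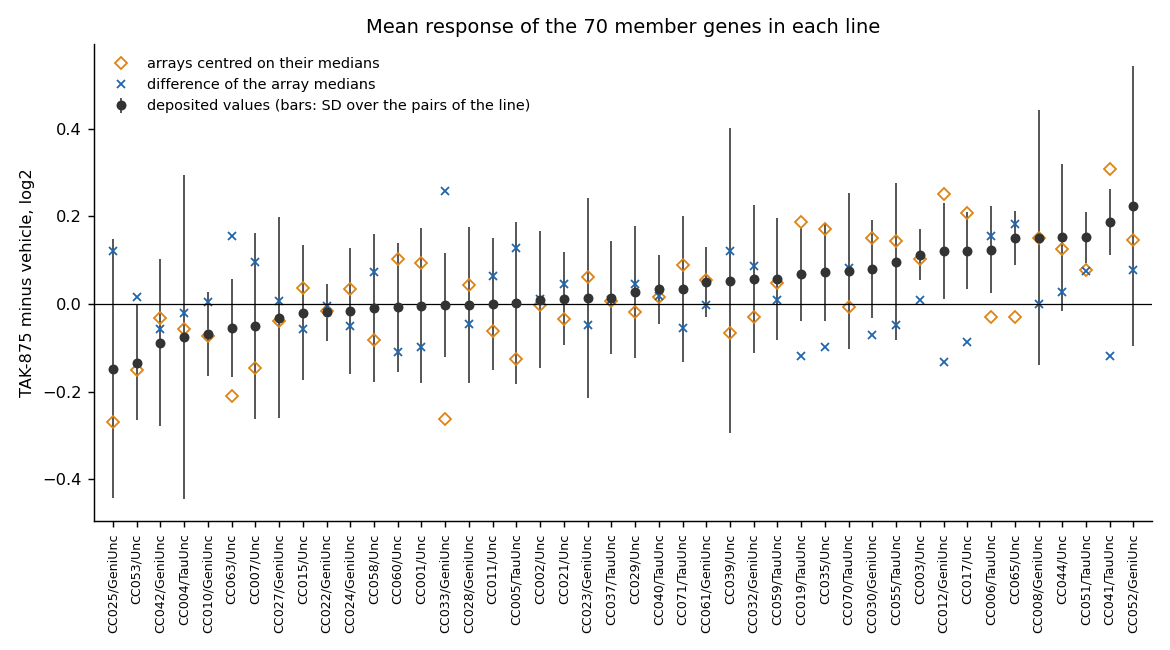
Mean response of the 70 members in each of 44 lines (y axis, log2 TAK-875 minus vehicle), sorted by the deposited values (black circles; bars, SD over 3 or 4 pairs), with the mean from centred arrays (orange diamonds) and the difference of array medians (blue crosses). The black circles run from -0.15 to 0.22, and a diamond lies below its circle where the cross is above 0 and above its circle where the cross is below 0.

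Within single lines, 52 of 3080 combinations of line and member were called (1.69%), against 1.56% of all combinations of line and gene, 44 of them up and 8 down. They came from 6 lines, and 38 lines had no called member. Leaving out a numbered pair from every line gave 24 calls without the first pair and 10 without the third, and 41 and 60 without the second and the fourth. The shares of all combinations called in these fits are not given here, so these counts cannot be read as particular to the members. CC052/GeniUnc had 21 rises and 1 fall, where 11.0% of all its genes were called. The member mean of its 4 pairs ran from -0.050 to 0.66 (SD 0.32). The calls rest on a spread per gene that all lines share, so they do not measure this wide spread. CC041/TauUnc had 15 rises and 2 falls, where 15.2% of all its genes were called, and CC005/TauUnc had 6 rises and 3 falls, where 10.9% were called. The other calls were Mrpl35 up in CC007/Unc, Mrpl17 up in CC029/Unc, and Mrpl44 and Mrps6 down in CC053/Unc.

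In CC041/TauUnc and CC005/TauUnc many members moved in opposite directions. Mrpl28 and Mrpl4 were called up in CC041/TauUnc, by 0.50 ± 0.23 and 0.50 ± 0.28 (SD, n = 4 pairs; limma, adjusted p = 0.00655 and 0.0251), and down in CC005/TauUnc, by -0.47 ± 0.22 and -0.61 ± 0.23 (SD, n = 4 pairs; limma, adjusted p = 0.0125 and 0.00888). Mrpl1, the protein of the mobile L1 stalk, did the reverse, with -0.84 ± 0.24 in CC041/TauUnc and 0.82 ± 0.65 in CC005/TauUnc (SD, n = 4 pairs; limma, adjusted p = 0.0232 and 0.0307). These p-values rest on a spread per gene that all lines share, not on the SD of the single line printed beside them. Of the 70 members, 33 were above 0 in CC041/TauUnc and below 0 in CC005/TauUnc, 14 the other way round, 23 above 0 in both and 0 below 0 in both. The Pearson r between the 2 lines was -0.76 over the 70 members and -0.62 over all 9093 genes, so the opposition was not confined to the members. Genes are not independent replicates, and these values carry no test.

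Whether the response differed between lines was tested with a limma F test on the pair differences. It called 6 members (8.57%), where 14.8% of all genes were called, namely Mrps9, Mrpl35, Mrps24, Mrpl14, Mrpl4 and Mrpl20. With centred arrays 17 members were called (24.3%), against 19.9% of all genes. Mrps9, a small subunit protein with a bacterial counterpart, had the largest SD of response between lines beyond the spread of pairs (0.18, against 0.33 within lines; limma F test, adjusted p = 0.0120). Its response ran from -0.51 ± 0.23 in CC041/TauUnc to 0.54 ± 0.55 in CC015/Unc (SD, 4 pairs each), around a mean over lines of -0.0068. Mrpl14 ran from -0.55 ± 0.45 in CC053/Unc (SD, 3 pairs) to 0.59 ± 0.21 in CC041/TauUnc (SD, 4 pairs). Mrpl18 reached 0.93 ± 0.99 in CC052/GeniUnc (SD, 4 pairs) and was not called in the F test (adjusted p = 0.0825). Mrpl1 was not called either (adjusted p = 0.130), with an SD of 0.18 between and 0.53 within lines. Leaving out any numbered pair from every line, which leaves 2 or 3 pairs a line, took the count of 6 to between 0 and 1 (limma, with 5 members at an unadjusted p under 0.05 where the count was 0). The share of all genes called in these fits is not given here, so the drop cannot be read as particular to the members.

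The levels of the members in vehicle-treated mice differed between lines nearly throughout. On the vehicle arrays, 69 of 70 members differed between lines (limma F test), as did 98.0% of all genes. The exception was Mrpl24, with an SD of 0.069 over line means (adjusted p = 0.132), and with centred arrays 70 of 70 differed. The spread of vehicle means was widest for Mrps36 (SD 0.67), Mrps10 (0.49), Mrpl1 (0.38) and Mrps25 (0.37). Probes can bind the alleles of the lines unequally, and this was not tested. The line means on vehicle and on TAK-875 arrays, which are separate mice, had a Pearson r between 0.22 (Mrpl4) and 0.92 (Mrps10) over the 44 lines, with a median of 0.68 over members.

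Mrps10, a small subunit protein at the head of the ribosome, separated the lines into a lower and an upper set. Its vehicle means were 7.48 ± 0.21 in CC030/GeniUnc, 7.65 ± 0.39 in CC008/GeniUnc, 7.80 ± 0.59 in CC044/Unc (n = 3) and 7.82 ± 0.20 in CC003/Unc (SD, n = 4 unless given). The other 40 lines lay between 8.30 and 9.61, with a gap of 0.48 that is smaller than the SD of CC044/Unc. The same 4 lines had TAK-875 means of 7.43, 7.89, 8.15 and 7.99. A second, dim probe set of Mrps10 was at 4.20, 4.92, 4.77 and 4.88 in these lines, 3 of them above its mean of 4.62 over all arrays. After TAK-875 the change of Mrps10 was 0.025 ± 0.19 (SD, 44 lines; limma, adjusted p = 0.580).

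Mrps36 was dim, with vehicle line means from 2.72 ± 0.36 in CC058/Unc to 5.32 ± 0.16 in CC029/Unc (SD, n = 4), and 41 of 44 lines lay at or below 4.63. Mrps25, a small subunit protein without a bacterial counterpart, was at 7.52 to 7.88 in 5 lines and at 6.23 to 7.19 in the other 39. The 5 were CC055/TauUnc, CC053/Unc, CC025/GeniUnc, CC063/Unc and CC029/Unc, and their TAK-875 means were 7.58, 7.27, 7.62, 7.52 and 7.56. The gap of 0.33 below them is smaller than the SD of CC055/TauUnc (0.36). Mrpl1 ran from 5.09 ± 0.60 in CC005/TauUnc to 7.07 ± 0.15 in CC070/TauUnc (SD, n = 4). Its other probe set was at 5.37 and 5.33 in these 2 lines and did not separate them. CC005/TauUnc, the lowest line for Mrpl1 on vehicle arrays, was also the line of its largest rise, and the 2 values share those vehicle arrays.

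**Figure D5:**
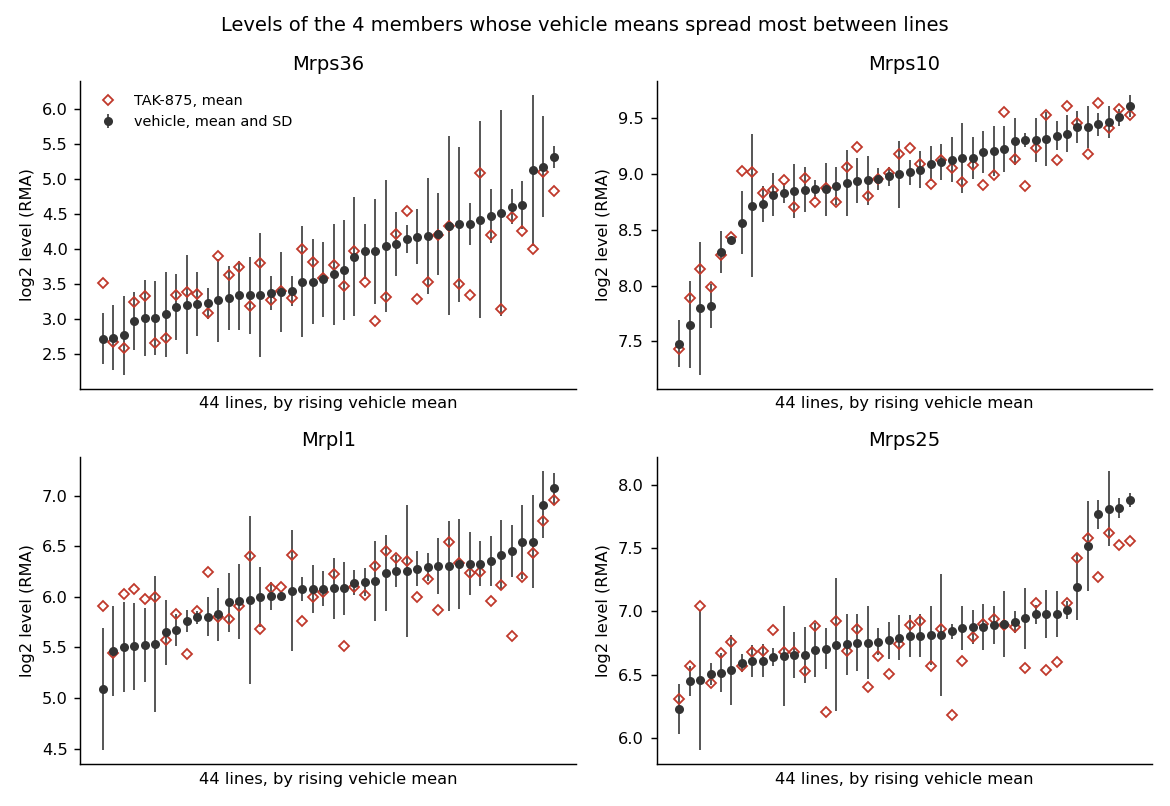
Levels of Mrps36, Mrps10, Mrpl1 and Mrps25 in the 44 lines (y axes, log2 RMA level), sorted in each panel by the vehicle mean; circles and bars are vehicle means and SD over 3 or 4 mice, open diamonds are TAK-875 means. Mrps10 has 4 lines between 7.48 and 7.82 below a gap, and Mrps25 has 5 lines between 7.52 and 7.88 above one.

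The members tended to move together over lines. With centred arrays, the median Pearson r between the line responses of 2 members was 0.48, against 0.051 for 2 genes of all tested, 0.29 within the 26 genes of the cytosolic list and 0.54 within the 73 of the respiratory chain list. With deposited values these medians were 0.28, 0.028, 0.13 and 0.20. Each r is over 44 lines that share arrays, and carries no test. Of the members, Mrpl37 (0.93) and Mrps7 (0.92) followed the mean of the other members most closely, and neither was called in the mean over lines. The median over members was 0.75, with a lowest value of -0.43. The 6 genes outside the family that followed the members most closely were Ndufaf8 (0.93, also one of the assembly factors above), Coa3 (0.92), Polr2f (0.92), Babam1 (0.91), Ecsit (0.91) and Tmem109 (0.91). None of these 6 was called in the mean over lines (limma, adjusted p from 0.0688 to 0.841). The median over all genes outside the family was 0.29, and the lowest was -0.90. These r with the mean of the members were taken with centred arrays only. Centring takes the same median from every gene of an array, so they and the centred medians above can be partly built in.

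For 21 members more than 1 probe set was available. In 0 of them were probe sets called in both directions, and in 5 the estimates had both signs. When every probe set was its own feature, 29 of 99 member probe sets rose and 5 fell. The shares over all probe sets are not given here, so these counts have no background. Of the 70 probe sets used, 5 can bind several transcripts of a family and 2 can bind unrelated transcripts. Of the 63 others, 25 rose (39.7%, against 15.2% of all genes) and 3 fell (4.76%, against 11.8%).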

How the data were processed

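Liver RNA of single mice was measured on Affymetrix HT MG-430 PM arrays. The deposited values are log2 levels that the authors made by RMA; the submitters' processing notes name Affymetrix Power Tools. The build behind the probe sets is not given in the sources used here. Whether probes overlap sequence variants of the lines was not examined. Arrays give no read depth, so the number of mice limits the precision.

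Of 16397 probe sets, 13083 name 1 gene and 261 several, and 9093 genes remained with the probe set of highest mean. Members and lists were chosen with earlier results of these data known. TAK-875 minus vehicle was taken in each study pair and averaged per line. The 44 line means were tested against 0 with limma 3.58.1 (R 4.3.3, data.table version 1.17.8; eBayes with trend), and the pair differences for differences between lines (F test) and within each line, with Benjamini-Hochberg adjustment over all genes at 0.05. Within-line p-values were adjusted over the genes of each line. They rest on a spread per gene shared by all lines, so they do not measure the SD of a single line. A like F test over the vehicle arrays compared levels between lines. The code was tested on simulated data. Summaries and figures used Python 3.11.15, numpy 2.4.6, pandas 2.3.3 and matplotlib 3.10.9.

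Pairs come from the labels, as mice dosed together. Deviations of paired mice from their group means had a mean correlation of 0.036 against -0.012 for other pairs of the line, and 60 of 171 pairs were over 0.1. The deviations of a group cancel out, so the second value is largely fixed by the first and adds no separate evidence for the pairing. Alternatives were centring each array on its median, a further quantile normalization, the mean of all probe sets or each probe set alone, leaving out the dimmest 25% of genes, a replicate block, eBayes without trend, leaving out each numbered pair, and leaving out the poorly correlated pairs.

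Members described singly are the 8 largest rises, the largest falls past the threshold up to 8 (4 passed), the 4 largest estimated SDs of response between lines, the 4 largest SDs of vehicle means, a set described whatever the result (Mrpl12, Mrpl10, Mrps12, Mrps36, Mrpl41, Mrpl44, Mrps30, Mrps18a, Mrps18b, Mrps18c), up to 3 genes per pathway list and the 6 genes most like the members. Members named in lists of calls within lines and in the difference between lines were named by those calls.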

Additional observations from a re-analysis of the deposited data

Results flagged for a closer look

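In 39 lines with 4 pairs, the mean response of the 70 members was examined for a pair apart from the others (Dixon's 95% criterion, which chance alone meets in about 1 in 20 groups), and 3 lines had one. In CC003/Unc the lowest pair was at 0.027, below the other pairs at 0.14 to 0.15. In CC029/Unc the highest pair was at 0.25, above the others at -0.070 to -0.019. In CC040/TauUnc the highest pair was at 0.15, above the others at -0.016 to -0.00013. The array medians of these pairs differed by -0.087, 0.036 and 0.050, in this order of lines. With centred arrays the pairs were at 0.11, 0.22 and 0.10. The centred means of their lines were 0.10 ± 0.095, -0.019 ± 0.16 and 0.015 ± 0.075 (SD, 4 pairs). The CC003/Unc pair was thus close to its line mean once arrays were centred.

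The response differed between lines for 6 members (limma F test on pair differences). The adjusted p was 0.0117 for Mrpl35, which ran from -0.17 in CC071/TauUnc to 0.44 in CC005/TauUnc. It was 0.0120 for Mrps9, whose extremes were CC041/TauUnc and CC015/Unc, and 0.0250 for Mrpl14, whose extremes were CC053/Unc and CC041/TauUnc. For Mrps24 it was 0.0208, with -0.34 in CC007/Unc and 0.50 in CC052/GeniUnc. For Mrpl4 it was 0.0326, with -0.61 in CC005/TauUnc and 0.50 in CC041/TauUnc. For Mrpl20 it was 0.0393, with -0.40 in CC025/GeniUnc and 0.43 in CC052/GeniUnc.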

How the results depend on the processing

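The count of 26 rises became 12 with centred arrays and 17 after a further quantile normalization, where 11.4% and 12.9% of all genes rose. It lay between 14 and 30 when a numbered pair was left out of every line, where 11.4% to 14.2% of all genes rose. The count of 4 falls became 2 with the mean of all probe sets, 2 without the poorly correlated pairs (a setting chosen after seeing the data), and 1 to 4 when a numbered pair was left out. In these settings 11.0%, 11.4% and 9.23% to 11.9% of all genes fell. The replicate block takes the study pair as the unit instead of the line. Pairs of a line share a genotype, so its p-values treat them as more independent than they are. With it, 30 members rose, all 26 among them, and the same 4 fell, where 18.7% of all genes rose and 15.1% fell. The block turned Mrpl10 (limma, adjusted p = 0.0184) and Mrpl18 (0.0207) into rises, and no call of a named member was lost. The 6 members whose response differed between lines became 17 with centred arrays, 10 after quantile normalization and 0 to 1 when a pair was left out (limma, 5 at an unadjusted p under 0.05 at the count of 0). The 52 calls within lines became 10 to 60 when a pair was left out. For calls within lines and differences between lines, the shares of all genes with quantile normalization or a pair left out are not given here. Centring turned the sign of 7 of the 70 members, of which 0 were called by limma on either scale. Among the members described singly, the signs of 2 turned in some setting, neither of them called: Mrps9, at -0.0068, was at 0.017 without the second pair (range over pairs left out -0.022 to 0.017), and Mrpl1, at 0.000015, was at -0.015 with centred arrays, -0.015 after quantile normalization, -0.0015 with the replicate block, -0.027 without the first pair and -0.0089 without the fourth (range over pairs left out -0.027 to 0.030). Over the named members and settings, 251 values kept their direction and call, 30 lost the call, 6 gained it and 6 changed sign. Causes were not tested, and leaving out a pair also leaves fewer mice. Mrps36, a dim member, had the widest SD of response within lines (0.95).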
